A study of Oncorhynchus mykiss with 18 samples.

Results

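The difference in stress response between plasma and epidermal mucus of rainbow trout was measured across known miRNAs in 12 of the 18 small RNA libraries of the series. For each miRNA, the change from control to stressed fish in mucus was subtracted from the same change in plasma, so a positive value means that the miRNA rose more, or fell less, in plasma. Of the 4884 rows of the count table, 212 carried the name of a known salmon miRNA, and 210 of these had a count in plasma or mucus. Rows with the same counts in all 12 libraries were kept once, which left 192 single miRNAs, of which 130 could be tested. The same rows summed by miRNA number and arm gave 125 sums, of which 89 could be tested. Of the 125 sums, 43 joined more than 1 row, and each of the others repeats a single row.

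Control plasma and mucus came from fish sampled before the stress, and stressed plasma and mucus from other fish of the same tank sampled 1 h after 3 min in air. Each of the 4 groups (plasma control, plasma stressed, mucus control, mucus stressed) had 3 libraries, 1 from each repeat of the experiment, and the plasma and mucus libraries of a treatment and number came from 1 fish. Blood was drawn from the caudal vessels and mucus was scraped from the body side, and RNA was extracted from the fluids with kits of different makers. The age and strain of the fish are not given in the sources used here. Any constant effect of the kit on a miRNA drops out of a difference between responses, whereas an effect that varies with the sample does not.

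MicroRNAs are short RNAs that bind messenger RNAs through a seed at their 5′ end and lower the output of their targets. Members of a family share that seed and can differ by a single letter elsewhere. Cells release miRNAs into body fluids in vesicles and bound to proteins, so plasma carries miRNAs of blood cells, endothelium and liver, and epidermal mucus those of the skin epithelium that secretes it. In fish, air exposure is an acute stressor that sets off the release of catecholamines and cortisol.

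The libraries differed in depth and content. Known miRNAs summed to between 3815302 and 12858162 counts in plasma and between 415594 and 1728386 in mucus. They made up 73.5% to 97.2% of all counts of the table in plasma, but between 3.63% (stressed 1) and 91.2% (stressed 3) in mucus. Levels are given as CPM, the counts of a miRNA scaled to the tested rows of its library, after scaling within each fluid by the trimmed mean of M-values (TMM). A level in CPM is thus not a share of the known miRNAs. The median standard deviation of log2 CPM within a group was 0.81 in plasma and 1.82 in mucus. The test used 1 estimate of the spread per miRNA for both fluids, so its errors did not take up this difference between them. No replicate pair of a group had identical counts, and the chi-square over its degrees of freedom was 301 or more in every pair, so each library was counted as 1 sample. The skin miRNA miR-203b-3p was at 81.4 to 2571 CPM in plasma and 13684 to 58591 CPM in mucus, and the red blood cell miRNA miR-144-5p was at 616 to 3643 CPM in plasma and 4.40 to 433 CPM in mucus, so neither overlapped between the fluids. The red blood cell miRNAs miR-451 and miR-486 were not analysed here. The liver miRNA miR-122-5p was at 348 to 2015 CPM in plasma, while in mucus it reached 691 CPM in control 1 and stayed at 8.33 CPM or less elsewhere. The number of source cells, their RNA content and its release into the fluid cannot be told apart in such samples.

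A difference was called at a p of 0.05 or less, a Benjamini-Hochberg adjusted p under 0.1 and an absolute log2 difference over 2, by the quasi-likelihood test of edgeR over all tested rows. That test left out the pairing of the plasma and mucus of a fish. The response of 6 of 130 single miRNAs (4.62%) was called different between plasma and mucus. In 4 of them, miR-125a-5p, miR-30b-5p, let-7b-5p and miR-23b-5p (3.08% of those tested), mucus held counts in controls 1 and 2 only. Mucus control 3 and the stressed mucus libraries had none, so the mucus groups overlapped, as did the plasma groups. Of the other two (1.54%), miR-26a-5p was counted in mucus only after stress, and miR-183-5p was lower in stressed plasma. Before adjustment, 29 miRNAs (22.3%) had a p of 0.05 or less, 19 positive and 10 negative. Of these 29, 16 had a group in which every library was at 0, against 25 of all 130 tested. None of the 89 sums was called (0%) by edgeR, although 20 (22.5%) had a p of 0.05 or less before adjustment by the same test. The sum miR-183-5p repeats the single row that was called, and had an adjusted p of 0.127 by edgeR among the sums. The Wald test of DESeq2 called 13 of the sums and limma-voom 0.

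Across the 130 miRNAs the median response was 0.046 in plasma and -0.33 in mucus on the log2 scale, and the median difference was 0.65, so a typical miRNA had a somewhat positive difference. The difference was positive in 79 miRNAs (60.8%) and negative in 51. The size of that shift depended on the scaling, from 0.24 (54.5% positive) with the size factors of DESeq2 to 1.30 (72.2% positive) with the totals over all rows of the table. It also depended on 1 library: without mucus control 1 the median difference was -0.36 and 42.4% were positive. The mucus response was the larger in size in 91 miRNAs and the plasma response in 39, with a median absolute log2 change of 1.03 in mucus and 0.48 in plasma. The standard deviation of log2 CPM within groups was also larger in mucus, with a median of 1.82 against 0.81 in plasma. With 3 libraries per group, a larger response and a larger spread of replicates in mucus cannot be told apart here. The responses of the 2 fluids had opposite signs in 73 of 130 miRNAs, and across the 130 miRNAs, which share the same 12 libraries and are not independent, Pearson's r between the responses was 0.028 and Spearman's rho 0.015. How far the spread of replicates bears on these signs and correlations was not tested.

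**Figure D1:**
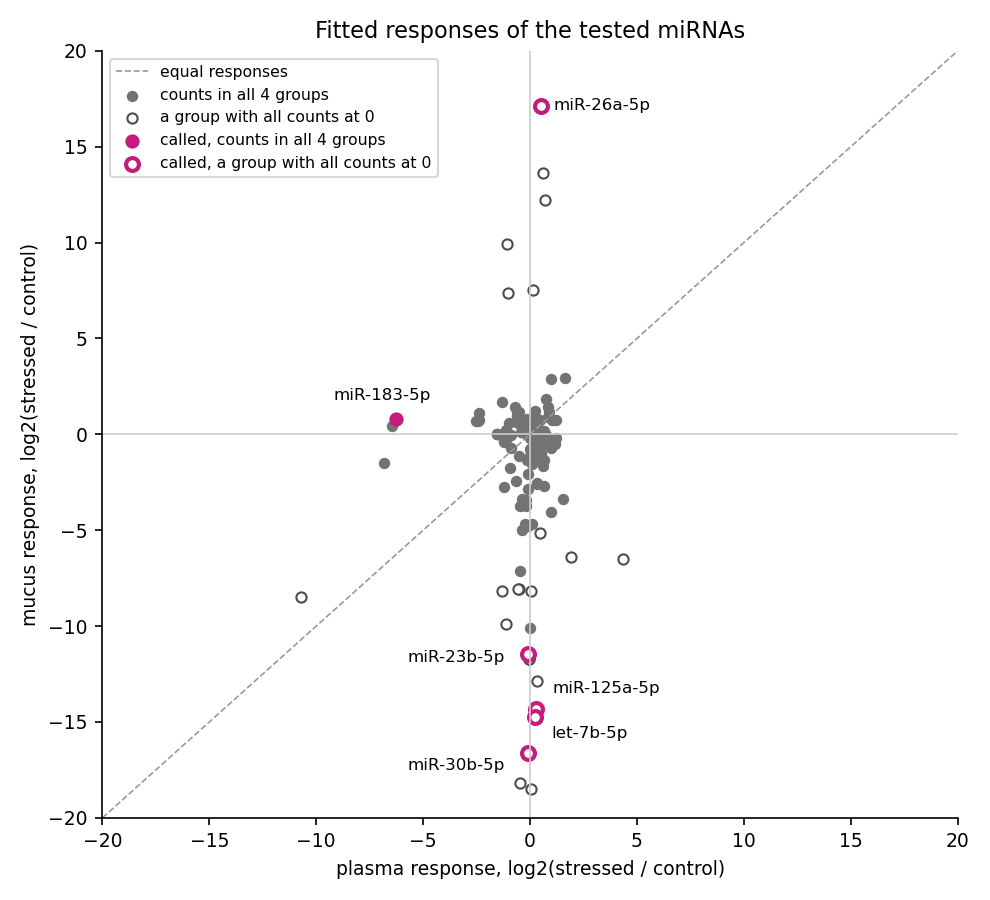
Fitted log2 response (stressed over control) in plasma on the x axis against that in mucus on the y axis for the 130 tested miRNAs. Points on the dashed line would respond alike. Open symbols have a group with all counts at 0, where the fitted value depends on the prior count, and pink symbols are the 6 called miRNAs. Most of the spread is vertical, with a median absolute change of 1.03 in mucus and 0.48 in plasma. The median standard deviation of log2 CPM within groups was also larger in mucus, at 1.82 against 0.81 in plasma.

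The number of calls changed with a block and with the loss of almost any single library. The calls other than miR-26a-5p had adjusted p of 0.0815 or 0.0816 by edgeR, not far under the threshold of 0.1. Since the plasma and the mucus of a fish form a pair, the fish was also taken as a block. That left 1 call, miR-26a-5p, and 3 miRNAs with an unadjusted p of 0.05 or less by edgeR. The other calls all had an adjusted p of 0.957 by edgeR there, a value shared through the adjustment that does not rank them. A block by fish also fits more terms to the same 12 libraries. With the number of the repeat as a block there was also 1 call, miR-26a-5p. Leaving out 1 library gave 1 call without plasma control 2, plasma stressed 1, 2 or 3, or mucus stressed 1, 2 or 3, and 2 calls without plasma control 1 or 3. It gave 6 calls without mucus control 2, 9 without mucus control 1 and 13 without mucus control 3. These held 4, 5 and 6 of the 6 main calls, in that order. Without mucus control 2, miR-183-5p and miR-23b-5p were lost and let-7c-5p and let-7f-5p were added. The sums had 1 call without plasma control 1, 6 without mucus control 1 and 16 without mucus control 3. When only miRNAs with a count in each of the 4 groups were kept, a setting chosen after seeing the data, none of 105 was called by the quasi-likelihood test and 15 had an unadjusted p of 0.05 or less.

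The smallest p was that of miR-26a-5p, a member of a family that restrains cell cycle genes in mammals. In plasma it was at 29107, 74483 and 83817 CPM in control fish and at 46796, 137143 and 81569 CPM in stressed fish, and the groups overlapped. In mucus it had 0 counts in all 3 control libraries and 2295, 1559 and 9404 counts, or 4071, 4223 and 5907 CPM, in the stressed libraries. The mucus groups therefore did not overlap. The fitted plasma response was 0.50 on the log2 scale, near the median absolute plasma change of 0.48 over the 130 miRNAs. Set against a floor of 3 counts over the control group (0.93 CPM), mucus miR-26a-5p was at least 5079-fold higher after stress, and the plasma response was at least 11.81 log2 units below the mucus response. The adjusted p was 8.13e-05 by the quasi-likelihood test of edgeR and 0.0106 with the fish as a block, and miR-26a-5p passed the thresholds in each of the 26 alternative settings in which it was tested. The floor covers counting error only, since PCR reads without molecular identifiers are not independent molecules.

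The other tested members of the family were not called. In the mucus controls, miR-26b-5p had 33015, 217 and 0 counts and miR-26d-5p had 32465, 68 and 0, so both were high in control 1 and absent from control 3. After stress, mucus had 172, 207 and 732 counts of miR-26b-5p and 0, 0 and 49 of miR-26d-5p. Their differences in response were 4.68 (SE 2.88, adjusted p = 0.39) and 10.10 (SE 3.82, adjusted p = 0.187). Without mucus control 1 they were -3.03 and 0.76, and that of miR-26b-5p was -2.63 with the fish as a block. In plasma miR-26a-5p held 98.4% to 99.2% of the counts of the sum miR-26-5p in every library, and in stressed mucus 93.0%, 88.3% and 92.3%. In control mucus it held 0 of 65480 counts in library 1 and 0 of 285 in library 2, which allows shares of up to 0.00458% and 1.05%, and library 3 had no count of any member. The 95% Wilson intervals of the stressed mucus shares were 92.0% to 94.0%, 86.7% to 89.7% and 91.8% to 92.8%.

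Summed over its members, miR-26-5p lost the pattern. The sum was at 85619.6, 136 and 0 CPM in control mucus and 4306, 4325 and 6458 CPM in stressed mucus, where 1 control library stood above and 2 below all stressed libraries. Its difference in response was 2.97 (SE 2.75, adjusted p = 0.572), with the opposite sign to that of miR-26a-5p alone. It was -5.30 (adjusted p = 0.141) without mucus control 1 and -5.04 (adjusted p = 0.896) with the fish as a block, all by edgeR, so no direction is given for the family as a whole.

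**Figure D2:**
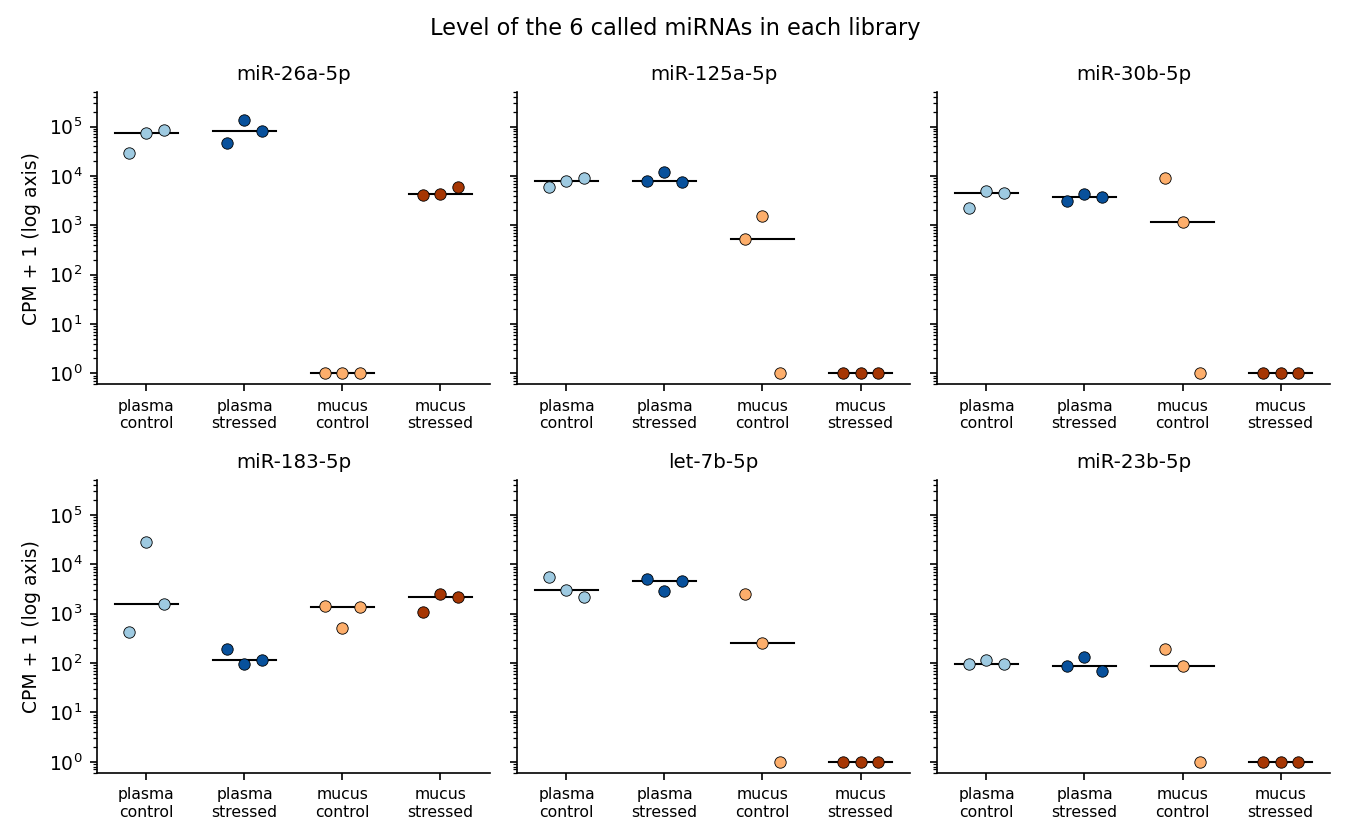
CPM + 1 on a log axis for the 6 called miRNAs, with 1 point per library (3 per group, in the order of replicates 1 to 3) and a line at the median. Points at 1 are libraries with 0 counts. The panels other than that of miR-183-5p hold a mucus group with all 3 libraries at 0, while miR-183-5p has counts in all 12 libraries.

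The reverse change was seen for miR-30b-5p, of a family abundant in epithelia and muscle of vertebrates. Its mucus counts were 8238, 2313 and 0 in control fish and 0 in all 3 stressed fish, so 1 control library was already at 0. In plasma it stayed between 2232 and 4895 CPM in all 6 libraries, with a response of -0.08. Against the floor of 3 counts over the stressed group (1.19 CPM), mucus miR-30b-5p was at least 2897-fold lower after stress, and the plasma response was at least 11.42 log2 units above the mucus response (adjusted p = 0.0815 by edgeR, 0.957 with the fish as a block). These bounds, and those given below for other miRNAs, compare group means. They cover counting error only and not the spread between fish. From its sequencing of mucus, the paper also reported miR-30b-5p as decreased and miR-26a-5p as increased after stress. In other mucus samples, it measured miR-30b-5p by RT-qPCR and reported a smaller fall, which did not reach its significance threshold. That measure was scaled to RNA input and a spike-in, so its size and the bound here are not like measures.

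The other miR-30 members were counted in every mucus library. miR-30a-5p was at 1407, 1029 and 294 CPM in control mucus and 231, 173 and 545 CPM in stressed mucus. miR-30c-5p was at 2938, 653 and 722 and 812, 834 and 511 CPM, and miR-30d-5p at 302, 912 and 211 and 199, 211 and 157 CPM. In all of them the highest level was that of a control library, and the groups overlapped. Differences in response of miR-30a-5p, miR-30c-5p, miR-30d-5p and miR-30e-5p were 1.60, 1.16, 1.21 and 0.20, with adjusted p of 0.466 or more by edgeR. All 5 members thus had a positive value, 4 of 5 with the size factors of DESeq2 and 3 of 5 without mucus control 1, where miR-30c-5p and miR-30e-5p turned negative. The sum miR-30-5p was at 16560.4, 3649 and 1293 CPM in control and 1337, 1183 and 1412 CPM in stressed mucus, and its difference of 2.40 (SE 1.19, adjusted p = 0.255) was not called.

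**Figure D3:**
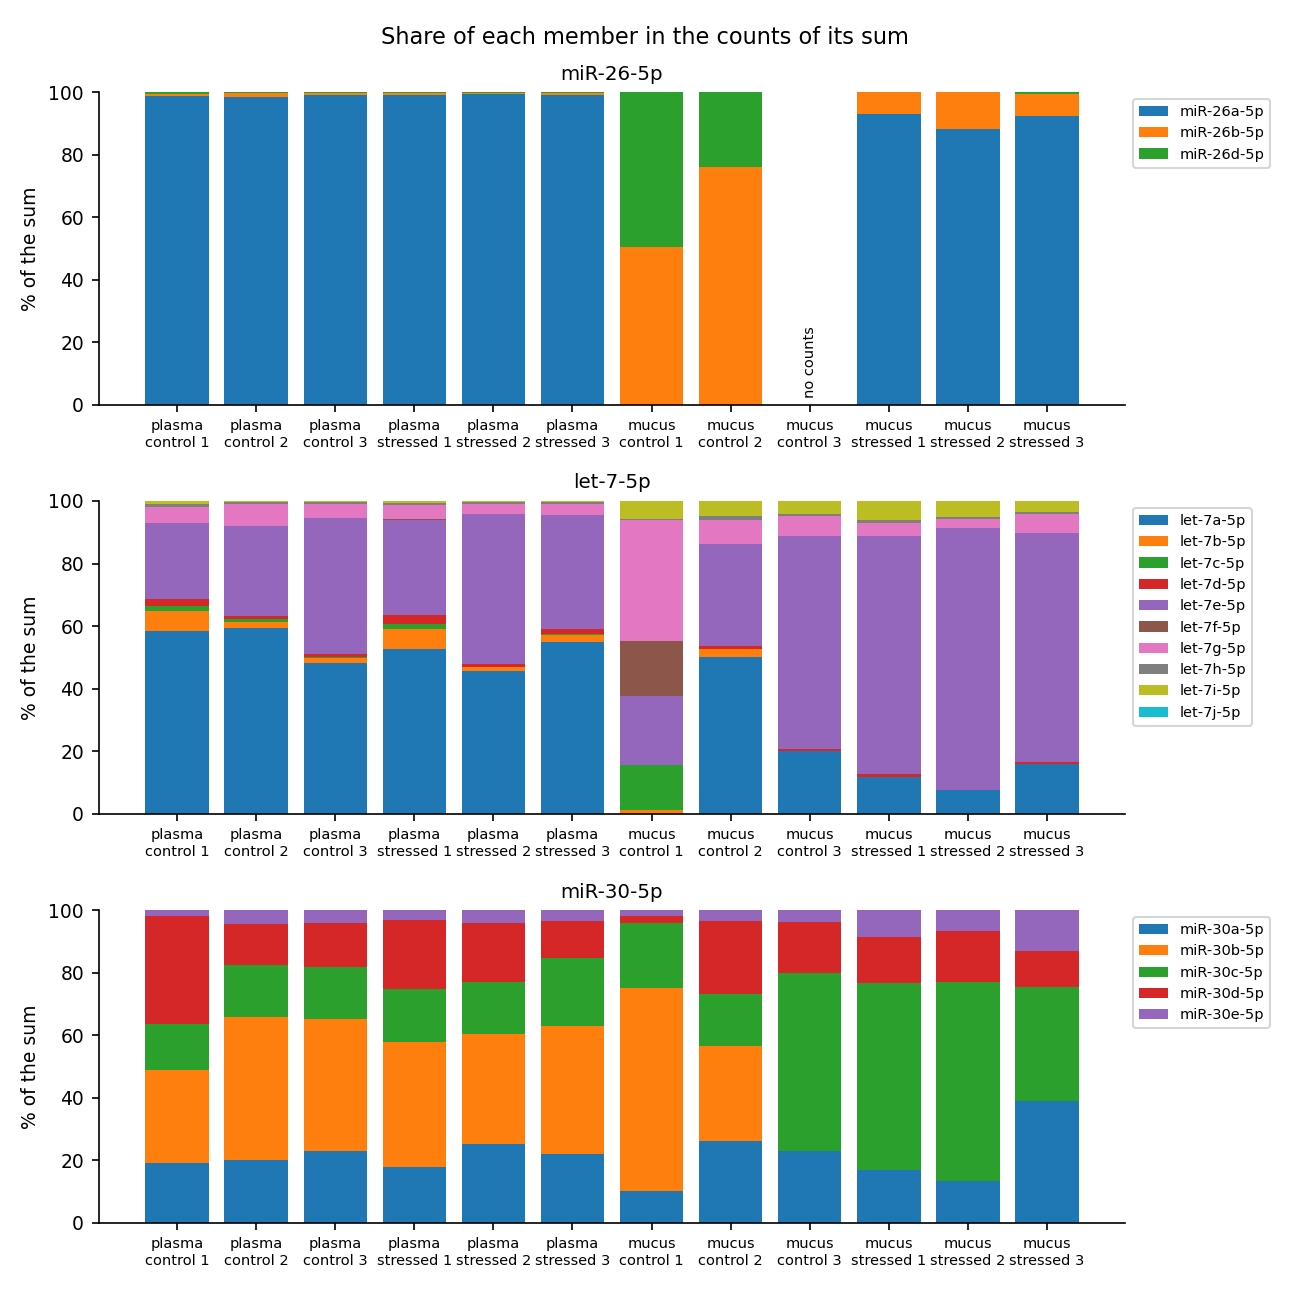
Percent of the counts of miR-26-5p, let-7-5p and miR-30-5p that each member held, in 1 bar per library. In mucus, miR-26a-5p held 0% in control 1 and 2 (control 3 had no count of the family) and 88.3% to 93.0% in stressed libraries, and miR-30b-5p was absent from control 3 and from the 3 stressed libraries.

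The let-7 family, which promotes differentiation in animals from worms to mammals, had the most members tested. All 9 tested members, of 13 counted, had a positive difference, 4 of them at an unadjusted p of 0.05 or less and 1, let-7b-5p, called. Over all 130 miRNAs, 60.8% were positive, 22.3% had such a p and 4.62% were called. Without mucus control 1, 4 of 7 were positive, 1 had such a p and the median was 0.018 in place of 1.96. With the fish as a block 8 of 9 were positive and none had such a p by edgeR. In that library let-7 members held a summed level of 209684 CPM, against at most 31727 CPM in the other mucus libraries. For let-7b-5p the mucus counts were 2237, 493 and 0 in control and 0 in all stressed libraries, while plasma was at 5504, 3018 and 2177 CPM in control and 5045, 2894 and 4584 CPM in stressed fish. Mucus let-7b-5p was thus at least 767-fold lower after stress, and the plasma response lay at least 9.81 log2 units higher (adjusted p = 0.0815 by edgeR, 0.957 with the fish as a block).

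let-7f-5p and let-7c-5p were counted in a single mucus library. let-7f-5p had 33429 and let-7c-5p 27274 counts in mucus control 1, and both were at 0 in the other 5 mucus libraries. Neither passed the adjusted threshold (adjusted p = 0.187 for both, edgeR). Their plasma levels overlapped between groups, at 26.4 to 76.9 CPM for let-7f-5p and 321 to 1610.3 CPM for let-7c-5p. let-7g-5p followed the same library, with 81389.7, 718 and 1283 CPM in control and 894, 404 and 1952 CPM in stressed mucus and a difference of 4.46 (SE 2.01, adjusted p = 0.219). The most abundant members were not called. let-7a-5p had 0, 9114 and 1448 counts in control and 1452, 378 and 8044 in stressed mucus (difference 0.32 (SE 2.19, adjusted p = 0.934)), and let-7e-5p was at 45709, 3024 and 13616 and 16607, 11436 and 23216 CPM, highest in control 1 (difference 0.99 (SE 1.24, adjusted p = 0.723), and -0.54 without mucus control 1). let-7d-5p, let-7h-5p and let-7i-5p had differences of 0.78, 1.18 and 1.96, with adjusted p of 0.474 or more, and let-7j-5p and the 3 rows of -3p arms (let-7a-3-3p, let-7c-3p and let-7d-3p) were not tested. The sum let-7-5p had a difference of 2.47 (SE 1.39, adjusted p = 0.313), which became -0.20 without mucus control 1.

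Of the miR-125 family, relatives of lin-4 of the nematode with roles in blood cell formation, miR-125a-5p was called. It was at 5984, 7861 and 8872 CPM in control and 8049, 11959 and 7366 CPM in stressed plasma, and its mucus counts were 471, 3054 and 0 in control and 0 in all stressed libraries. The mucus level was at least 584-fold lower after stress, and the plasma response at least 9.46 log2 units higher (adjusted p = 0.0815 by edgeR, 0.957 with the fish as a block). miR-125b-5p was more abundant in plasma, at 8649.6 to 12918 CPM, but had no count in any mucus library. The sum miR-125-5p had the smallest p of all sums (adjusted p = 0.107), just outside the threshold.

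miR-23b-5p, of the clusters that join miR-23, miR-24 and miR-27, had low counts throughout. In plasma it was at 93.3, 115 and 95.2 CPM in control and 87.2, 130.2 and 67.5 CPM in stressed fish. Its mucus counts were 174, 167 and 0 in control and 0 in all stressed libraries, so mucus was at least 78.1-fold lower after stress and the plasma response at least 6.20 log2 units higher (adjusted p = 0.0816 by edgeR, 0.957 with the fish as a block). The more abundant miR-23a-5p had 1410, 2510 and 0 counts in control and 320, 258 and 3024 in stressed mucus, without a change of that kind (difference 0.31 (SE 2.10, adjusted p = 0.934)). In the clusters as a whole 9 of 10 tested miRNAs had a positive value with a median of 0.61, against 60.8% positive and a median of 0.65 over all miRNAs. With the size factors of DESeq2 this was 5 of 10 (median 0.12) and without mucus control 1 it was 6 of 10 (median 0.055). The sum miR-23-5p had a difference of 0.51 (SE 2.05, adjusted p = 0.908).

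miR-183-5p was the only called miRNA with counts in all 12 libraries, and the only one whose plasma groups did not overlap. It belongs with miR-96 and miR-182 to a cluster of sensory cells and epithelia. Plasma had 416, 28668 and 1607 CPM in control and 188, 93.9 and 117 CPM in stressed fish, so the groups did not overlap, although control 2 stood far above the other two. Mucus had 1451, 509 and 1391 CPM in control and 1105, 2541 and 2217 CPM in stressed fish, and these overlapped. The response was -6.27 in plasma and 0.81 in mucus, a difference of -7.07 (SE 1.87, adjusted p = 0.0815) by edgeR. It was -4.10 (adjusted p = 0.177) without plasma control 2, and -4.71 (adjusted p = 0.957) with the fish as a block.

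The other miRNAs of the cluster were not called. miR-96-5p was at 18.9, 2809 and 61.5 CPM in control and 29.9, 3.07 and 0 CPM in stressed plasma, and at 64.4, 48.5 and 103 and 55.0, 135 and 98.6 CPM in mucus. miR-182-5p was at 56.3, 14871 and 409 and 63.7, 34.2 and 35.6 CPM in plasma and at 1108, 469.9 and 275 and 172, 211 and 276 CPM in mucus. Plasma control 2 was the highest library for both, and their plasma groups overlapped. The fitted mucus response was 0.43 for miR-96-5p and -1.49 for miR-182-5p, and their differences of -6.88 (SE 2.80, adjusted p = 0.199) and -5.35 (SE 2.12, adjusted p = 0.193) were not called.

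Skin and other epithelial miRNAs, a list of 12, mostly had the opposite sign to the bulk of miRNAs when all 12 libraries were used. The difference was negative in 11 of 12, with a median of -2.34 against 0.65 over all tested, 5 at an unadjusted p of 0.05 or less and 1 called (miR-183-5p). Over all 130 miRNAs, 51 were negative, 22.3% had such a p and 4.62% were called. The 5 became 2 with the fish as a block, 3 with the number as a block and 1 with totals over all rows of the table. Among the 12, miR-200a-3p, miR-200a-2-5p and miR-200a-1-5p had nearly the same counts, with differences of -1.56, -1.55 and -1.55, and are not independent. In every alternative setting 10 or more of the 11 or 12 tested were negative. The sign of the bulk was less stable: without mucus control 1, 42.4% of all tested miRNAs were positive, with a median of -0.36. The list, with a median of -2.17 in that setting, then had the same sign as most miRNAs. Their summed level in plasma was 5478 to 48159 CPM in control and 1111 to 3475 CPM in stressed fish, without overlap. Most of the 48159 CPM, in plasma control 2, came from miR-183-5p, miR-182-5p and miR-96-5p. Without these miRNAs that library lay within the range of stressed plasma. In mucus the summed level was 77049 to 204632 CPM in control and 164747 to 203426 CPM in stressed fish. miR-203a, which drives differentiation in the epidermis of mammals and is given here under the name miR-203a-2-5p since rows with the same counts were kept under that name, was at 229, 97.4 and 966 CPM in control and 72.5, 48.4 and 127 CPM in stressed plasma. In mucus it was at 10253, 9486 and 39097 and 43588, 46291 and 37333 CPM. The difference was -3.50 (SE 1.25, adjusted p = 0.187), and that of miR-203b-3p -3.13 (SE 1.23, adjusted p = 0.193). Both fell short of the adjusted threshold, as did the sums miR-203-5p and miR-203-3p, which repeat these rows (adjusted p = 0.21 for both by edgeR).

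Among the members of the miR-200 family, which keep the epithelial state by repressing ZEB factors in mammals, miR-429-3p had plasma levels of 16.4, 9.62 and 32.9 CPM in control and 2.74, 0 and 8.08 CPM in stressed fish. Its mucus levels were 269, 235 and 358 and 543, 423 and 451 CPM. Stressed and control libraries did not overlap in plasma for 10 of the 130 miRNAs (7.69%), with 6 higher (4.62%) and 4 lower (3.08%) after stress. In mucus this held for 8 (6.15%), with 5 higher (3.85%) and 3 lower (2.31%), and miR-429-3p was the 1 miRNA (0.769%) without overlap in both, lower in stressed plasma and higher in stressed mucus. Its difference was -3.16 (SE 1.75, adjusted p = 0.352 by edgeR) and was not called. Groups of 3 libraries can also separate without a response, and the shares without overlap were not set against that. The sum miR-200-3p had -1.16 (SE 1.06, adjusted p = 0.572), and miR-205a-5p was the list's single positive value at 1.70 (SE 2.20, adjusted p = 0.723) on 0, 56 and 0 and 5, 0 and 14 mucus counts.

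**Figure D4:**
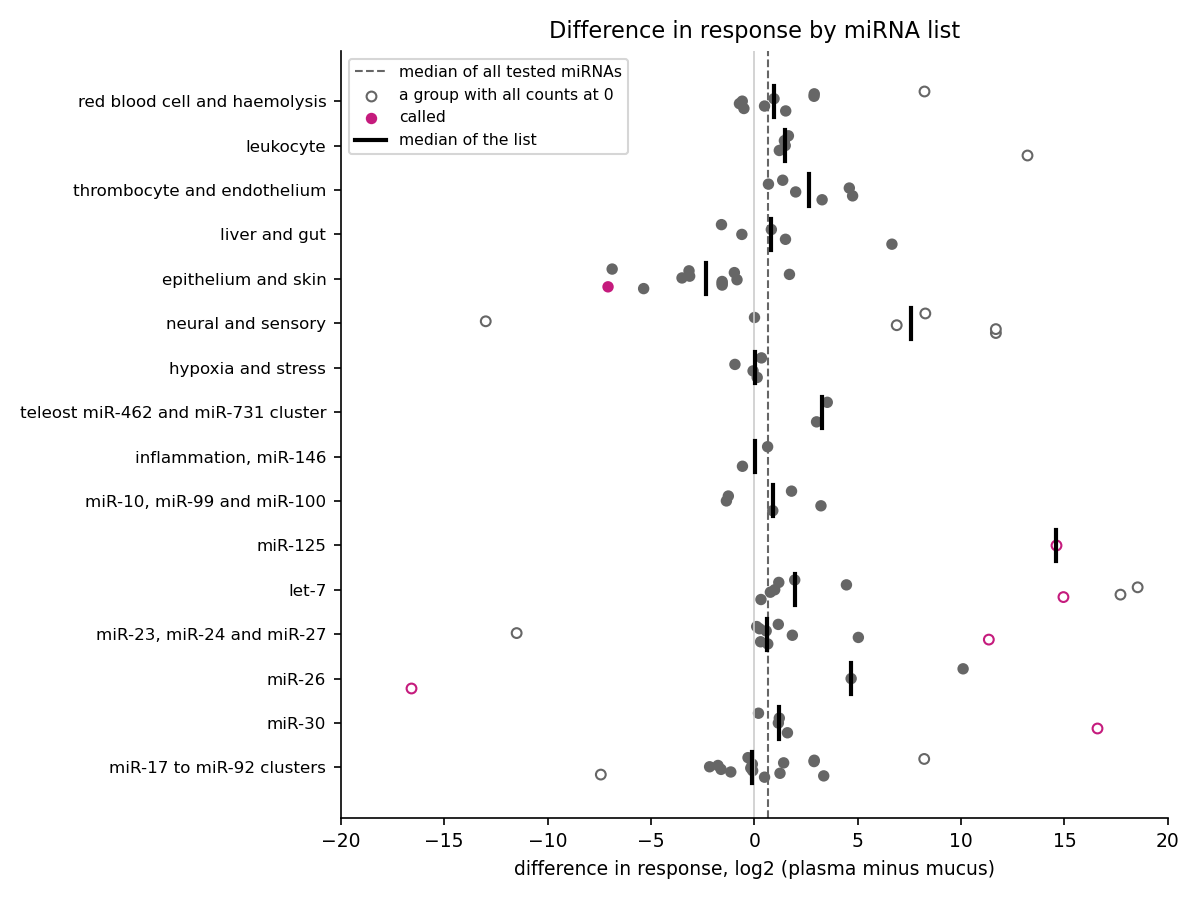
Difference in response (log2, plasma minus mucus) of each tested member by list, 1 point per miRNA, with a bar at the median of the list and a dashed line at the median of all 130 miRNAs (0.65). The epithelium and skin list has 11 of 12 members below 0, and the leukocyte, thrombocyte, let-7 and miR-30 lists have all members above 0 with the 12 libraries.

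Lists of blood and vessel miRNAs differed in how far their signs held, against 60.8% positive over all 130. All 5 leukocyte miRNAs were positive, with a median of 1.50, and none of the 4 or 5 tested was negative in any alternative setting. The highest was miR-142a-5p, a marker of all white blood cells, at 1178, 3520.0 and 4107 CPM in control and 1923, 6395 and 2835 CPM in stressed plasma. Its mucus counts were 0, 1318 and 23 in control and 0 in all stressed libraries, so control 1 was already at 0. The mean mucus level was at least 207-fold lower after stress, a bound that rests mostly on control 2. The difference was not called (adjusted p = 0.123 singly and 0.138 as the sum, which repeats this row, edgeR). The lowest was miR-150-5p of mature lymphocytes, with 1.21 (SE 1.67, adjusted p = 0.723). The summed level of the list, which was not tested, was 13398 to 43995 CPM in control and 22269 to 83159 CPM in stressed plasma, against 6126 to 7215 and 2817 to 6331 CPM in mucus.

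The 6 miRNAs of thrombocytes and endothelium were all positive with a median of 2.64, but 2 of 6 with a median of -0.40 without mucus control 1, and none had an unadjusted p of 0.05 or less. The endothelial miR-126-5p was at 2051, 104 and 16.7 CPM in control and 101, 24.4 and 37.7 CPM in stressed mucus, with a difference of 3.28 (SE 1.83, adjusted p = 0.352). miR-199a-3p had the highest value, 4.76 (SE 3.42, adjusted p = 0.466), and miR-222a-5p the lowest, 0.68 (SE 0.96, adjusted p = 0.723). In the red blood cell list 6 of 9 were positive with a median of 0.95, and 4 of 8 with a median of 0.20 without mucus control 1. Its highest was miR-92b-3p, with 26, 0 and 0 counts in control and none in stressed mucus, and its lowest miR-15c-5p (-0.72 (SE 1.05, adjusted p = 0.733)). miR-144-5p, of erythroid cells, was at 616, 3643 and 1354 CPM in control and 1035, 666 and 713 CPM in stressed plasma, and its difference was 1.52 (SE 1.63, adjusted p = 0.679).

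miR-16 could not enter the comparison, since none of miR-16c-5p, miR-16b-5p and the abundant miR-16a-5p had a count in any mucus library. miR-16b-5p had 0 counts in control plasma and 752, 709 and 241 in stressed plasma, and miR-16c-5p 0 and 0, 3168 and 966. At 3159.7 to 12950 CPM in all 6 plasma libraries, miR-16a-5p was by far the most abundant of the family. A change of miR-16b-5p or miR-16c-5p in mucus was thus not detectable at this depth.

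In the liver and gut list 3 of 5 were positive. miR-122-5p, the main miRNA of liver cells, had mucus counts of 623, 6 and 3 in control and 0, 0 and 6 in stressed fish and a difference of 6.66 (SE 2.57, adjusted p = 0.192), and miR-194a-5p had -1.59 (SE 1.46, adjusted p = 0.572). The miR-462 and miR-731 list, a cluster known from teleosts and induced by virus and hypoxia in fish, held only miR-462a-5p and miR-462b-5p. No row of miR-731 was among its members. Both differences were positive, with a median of 3.27, and of 0.69 without mucus control 2. miR-462a-5p was at 56131, 107043 and 54909.5 CPM in control and 53495, 54549.5 and 59581 CPM in stressed plasma, and at 623, 19391 and 1902 and 482, 645 and 960.4 CPM in mucus, where control 2 stood above the rest. Its difference was 3.01 (SE 1.38, adjusted p = 0.227), and that of miR-462b-5p was 3.53 (SE 1.44, adjusted p = 0.199).

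Other lists had a median below that of all miRNAs or rested on zeros. The hypoxia and stress list had 2 of 4 tested members positive and a median of 0.040, with miR-21b-5p lowest at -0.94 (SE 2.46, adjusted p = 0.873) and miR-29b-2-5p highest at 0.35 (SE 1.82, adjusted p = 0.934). The miR-17 to miR-92 clusters had 7 of 16 positive and a median of -0.087, and their lowest was miR-130b-2-5p, with 0 counts in control and 6, 0 and 12 in stressed mucus (adjusted p = 0.187, edgeR). In the neural and sensory list 5 of 6 tested members had a group at 0, so its median was 7.58 as fitted and 2.31 with those members at their bound. miR-128-2-5p of that list had 0, 667 and 0 counts in control and none in stressed mucus, and miR-7a-5p none in control and 0, 0 and 2008 in stressed mucus (adjusted p = 0.187 and 0.219). miR-128-4-5p had 49620 and miR-128-2-5p 49636 counts in plasma control 2 and the same counts in the other plasma libraries, and the sums miR-128-5p and miR-128-3p drew on such overlapping rows and are not independent (adjusted p = 0.21 for both). The lone mucus count of miR-24a-5p, 760 in stressed 3, gave the most negative value of its list without reaching the threshold (adjusted p = 0.466). None of the 8 counted muscle miRNAs had a count in mucus, so none was tested.

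Of the 8 most abundant single miRNAs over the 12 libraries, miR-26a-5p was the only one called. miR-146a-5p, a brake on inflammatory signalling in mammals, was at 191761, 172489 and 261931 CPM in control and 122085, 191399 and 150027 CPM in stressed plasma. In mucus it was at 318346, 405888 and 898426 and 889703, 529152 and 367547 CPM, so all groups overlapped within a fluid, and the difference was -0.57 (SE 0.63, adjusted p = 0.684). For miR-100a-5p the difference was 0.89 (SE 0.81, adjusted p = 0.567), with plasma stressed 2 highest at 598696 CPM. miR-10b-5p was lower in every stressed than in every control plasma library, at 38006, 25367 and 25676 against 106254, 44258 and 42678 CPM, while mucus overlapped, and the difference was -1.35 (SE 0.77, adjusted p = 0.363). Its relative miR-10a-5p, high in mucus control 1 at 29436 CPM, had 3.22 (SE 1.80, adjusted p = 0.352). The sums miR-146-5p, miR-100-5p, miR-10-5p, miR-21-5p and miR-462-5p had differences of -0.52, 1.00, -0.97, -0.48 and 3.06, with adjusted p of 0.21 or more by edgeR. miR-146d-5p, the lesser of the inflammation pair, had 0.64 (SE 1.04, adjusted p = 0.775).

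Of the 10 sums with the smallest p, miR-183-5p (adjusted p = 0.127), miR-203-5p, miR-203-3p and miR-96-5p were negative with counts in mucus throughout, and miR-125-5p, miR-142-5p, miR-128-5p and miR-128-3p were positive with no count in stressed mucus. miR-122-5p was positive at 6.80 (SE 2.54, adjusted p = 0.21). miR-458-5p was negative at 0 counts in control and 0, 5 and 6 in stressed mucus (adjusted p = 0.21). Summed over both arms, a setting chosen after seeing the data, 2 of 77 numbers were called, miR-125 and miR-183.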

How the data were processed

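Small RNA libraries of trout plasma and mucus were compared. As stated in the processing notes of the submitters and in the methods of the paper, the authors trimmed reads with cutadapt 2.10, aligned them with Bowtie 1.1.1 to Omyk_1.0 and deposited estimated counts per miRNA from miARma-Seq and miRDeep2, averaged over precursors. These counts were all whole, so rounding changed none. The deposited result tables of fold changes, p-values and log2 levels hold the authors' own comparisons and were not used. Reads that match several members or arms could be split or counted more than once. Rows with identical counts were kept once under the first name in alphabetical order, and 11 of 16 such sets crossed a number or an arm.

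Rows passed filterByExpr by the 4 groups (minimum count 10) and had a count in each fluid. TMM factors were set within each fluid. The interaction of fluid and treatment was tested with glmQLFTest of edgeR 4.0.16 in R 4.3.3, without a block and with Benjamini-Hochberg adjustment. The study also used no block for plasma and mucus, but it compared separate fish within 1 fluid. The contrast here takes both fluids of a fish, so the main test leaves out that pairing, which the block by fish takes in. Log2 CPM used a prior count of 2. The script was tested on simulated data with less spread than these and with every mean set above 0. That test does not cover calls against an empty group. DESeq2 1.42.0, limma 3.58.1, other scalings and filters, blocks and leaving out each library were alternatives. Plasma and mucus of a treatment and number come from the same fish per the paper's design, which pairs them. Deviations from the group means correlated between them at 0.18, 0.12 and 0.01 in control and -0.01, -0.08 and -0.13 in stressed fish. Named were every called miRNA, the 10 smallest p, miR-16b-5p, miR-16c-5p, miR-26a-5p and miR-30b-5p, the 8 highest mean CPM, the members of the families called, and the highest and lowest of each list. miR-429-3p, miR-182-5p, miR-126-5p, miR-144-5p and miR-203b-3p were named after their values were seen. The members and lists were chosen with earlier results of these data known. Sequences of the miRNAs were not used here.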

Additional observations from a re-analysis of the deposited data

Results flagged for a closer look

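Each of the 6 results here stands out because the responses of plasma and mucus to the same stress differed in the test of the interaction (edgeR). The log2 difference, plasma minus mucus, was -16.60 for miR-26a-5p, as fitted on a mucus control group without counts. It was 14.60 for miR-125a-5p, 16.56 for miR-30b-5p, 14.95 for let-7b-5p and 11.35 for miR-23b-5p, all fitted on a stressed mucus group without counts, and -7.07 for miR-183-5p. The fitted values against an empty group depend on the prior count and are no bounds. With the fish as a block, 1 of the 6 was called, miR-26a-5p at -16.71 (adjusted p = 0.0106).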

How the results depend on the processing

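Of the alternatives, 6 calls among single miRNAs became 14 with totals over all rows of the table as library sizes, 17 with the Wald test of DESeq2, 1 with a filter passed in plasma and in mucus, 1 with limma-voom, 1 at an adjusted p under 0.05, 1 with the replicate number as a block, 1 with the fish as a block and 0 of 105 with counts required in all 4 groups (15 at an unadjusted p of 0.05 or less, edgeR). Leaving out 1 library gave 1 to 13. The 0 called sums became 9 with totals over all rows, 13 with the Wald test of DESeq2, 2 with TMM over the 12 libraries, with the size factors of DESeq2, with no filter, with the newer dispersion estimate and when summed over both arms, and 1 with robust estimation. Leaving out 1 library gave 0 to 16. With the number or the fish as a block the sums had 0 calls (9 and 4 at a p of 0.05 or less before adjustment, edgeR). The cause of these changes was not tested, other than that fewer rows or samples enter some settings. The 4 positive calls did not enter with a filter passed in plasma and in mucus. With counts required in all 4 groups, only miR-183-5p of the 6 calls entered. These settings are thus no test of the calls left out. Mucus depth, at 1728386 known counts or fewer, and 3 fish per group limit what could be detected.

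Of the named differences that turned sign, none was called in the main test. With the size factors of DESeq2 the value was -0.20 for miR-30e-5p and -0.15 for miR-23a-5p. With totals over all rows the value was 0.36 for miR-146a-5p, 0.36 for the sum miR-146-5p and 0.13 for the sum miR-200-3p. With no filter the value was -0.14 for miR-30e-5p and -0.043 for miR-23a-5p. With the filter by groups alone the value was -0.16 for miR-30e-5p and -0.072 for miR-23a-5p. With limma-voom the value was -3.28 for let-7a-5p, -1.16 for miR-26b-5p, -2.48 for miR-23a-5p, -1.57 for miR-29b-2-5p, -3.64 for the sum miR-26-5p and -2.03 for the sum miR-23-5p. With the replicate number as a block the value was -0.35 for let-7a-5p. With the fish as a block the value was -0.73 for let-7a-5p, -2.63 for miR-26b-5p, -0.015 for miR-30e-5p, -0.39 for miR-23a-5p, -0.69 for miR-199a-3p, -0.41 for miR-205a-5p, -0.17 for miR-29b-2-5p, -5.04 for the sum miR-26-5p and -0.25 for the sum miR-23-5p. On leaving out 1 library each in turn, the values ranged over -0.51 to 0.40 for miR-30e-5p, -2.27 to 0.18 for miR-194a-5p, -0.89 to 0.82 for miR-23a-5p, -24.98 to 1.14 for miR-24a-5p, -0.27 to 1.23 for miR-100a-5p, -0.22 to 1.01 for let-7a-5p, -0.54 to 1.48 for let-7e-5p, -0.49 to 5.02 for let-7g-5p, -3.03 to 5.27 for miR-26b-5p, -0.98 to 2.45 for let-7i-5p, -0.0033 to 1.50 for miR-30c-5p, -9.03 to 13.29 for miR-199a-3p, -0.43 to 0.95 for miR-146d-5p, -0.88 to 3.74 for miR-10a-5p, -6.52 to 2.32 for miR-205a-5p, -0.13 to 0.84 for miR-29b-2-5p, -0.046 to 1.01 for let-7d-5p, -0.33 to 1.21 for the sum miR-23-5p, -0.20 to 3.03 for the sum let-7-5p and -5.30 to 3.63 for the sum miR-26-5p.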

Other observations

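Some zeros in mucus stood beside abundant partners of the same sum. Members that held at least 10% of their sum in each of the 6 plasma libraries numbered 50. In mucus libraries with at least 1000 counts of the sum, these gave 140 pairs of member and library, and in 6 pairs the member was at 0. Both thresholds were chosen after seeing the data. let-7a-5p, 45.5% or more of let-7-5p in plasma, had 0 of 188888 counts in mucus control 1. miR-26a-5p had 0 of 65480 in the same library, and miR-21b-5p, 58.1% or more of miR-21-5p in plasma, had 0 of 38842 in mucus control 2, where miR-21a-5p held all counts. In the other 5 mucus libraries miR-21b-5p held 48.9% to 63.1%. The remaining pairs were miR-125b-5p with 0 of 3054 in mucus control 2, miR-30b-5p with 0 of 2227 in mucus stressed 3, and miR-181c-5p with 0 of 1033 in mucus stressed 2. Among these members, miR-26a-5p and miR-30b-5p were called in the comparison of responses. Whether the counting of reads that match several members plays a part in these zeros was not tested.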
